A study of Mus musculus with 2 samples.

Results

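Growth factor and collagen receptor kinases were followed in the RNA of cultured mouse chondrocytes. The genes were the FGF receptors *Fgfr1*, *Fgfr2* and *Fgfr3* with the FGF-binding protein *Fgfrl1*, the PDGF receptors *Pdgfra* and *Pdgfrb*, the EGF receptor *Egfr*, the hepatocyte growth factor receptor *Met*, and the collagen receptors *Ddr1* and *Ddr2*. They were chosen by symbol, and all 10 were found among the 22156 genes of the expression table. All 10 also had at least 10 counts over both libraries, the condition for being tested, which 12431 genes met.

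The study compared primary chondrocytes from *Myl3*-KO mice and control mice, with 1 library each. The labels give rib cartilage as the tissue, while the study's methods also name articular cartilage as a source of chondrocytes, all from newborn mice. The cells grew as a monolayer in serum-containing medium, with no treatment. In *Myl3*-KO mice a Cre recombinase driven by the *Col2a1* promoter, active in cartilage cells, removes floxed *Myl3*, a gene for a myosin light chain. The study's methods describe the controls as littermates that carry the floxed *Myl3* alleles without Cre, on the C57BL/6J background, whereas the sample labels give their genotype as WT. No label says how many mice entered a library.

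Receptor tyrosine kinases are membrane proteins that bind a ligand outside the cell and pair up, after which their kinase domains phosphorylate each other and recruit adaptors that start the RAS-ERK, PI3K-AKT and phospholipase C pathways. In the growth plate, FGFR3 restrains chondrocyte proliferation, while FGFR1 is best known from hypertrophic chondrocytes and FGFR2 from the surrounding perichondrium and bone-forming cells. PDGF receptors are typical of mesenchymal cells, and DDR1 and DDR2 differ from the others in that their ligand is collagen itself, with DDR2 binding the fibrillar collagens of cartilage and bone. FGFRL1 binds FGF ligands but lacks a kinase domain.

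*Myl3* (ENSMUSG00000059741) was at 0 counts and 0 FPKM in each library, so the targeted gene could not check the labels. The libraries held 17612434.91 control and 13477976.98 *Myl3*-KO counts, at which a floor of 3 counts is 0.170 and 0.223 CPM (counts scaled to the library total). The labelled cell type was weakly marked, with 5 of 15 chondrocyte markers at 0 in both libraries and a summed level of 75.97 CPM in the control against 76.9 CPM in *Myl3*-KO. *Acan*, *Cnmd*, *Hapln1*, *Matn1* and *Matn3*, which encode cartilage matrix and matrix-bound proteins, were at 0 counts in each library, and *Col2a1* had 30 control and 27 *Myl3*-KO counts. *Sox9*, the chondrocyte transcription factor, had 866 and 480 counts, a log2 ratio of -0.47, and was not called. *Col11a2*, a chain of cartilage collagen XI, had 293 and 395 counts, a log2 ratio of 0.82, and was the only chondrocyte marker called, in the higher direction. Of the 6 chondrocyte markers tested 5 were above 0, beside 52.7% of all genes tested, with a median log2 ratio of 0.41. By the test given with the receptor ratios 2 of the 6 differed beyond counting error, *Sox9* lower and *Col11a2* higher. Of all genes tested 18.6% were higher and 16.8% lower by that test, and 4.03% were called higher and 1.37% lower. The fibroblast list, led by *Col1a2* with 211652 and 189213 counts, summed to 18520 CPM (control) and 22006 CPM (*Myl3*-KO). Within it *Thy1* was at 0 in both, *Dcn* and *Lum* were called lower, and *Fn1* was called higher by the rule given with the receptor ratios. Markers of muscle, endothelial and epithelial cells each summed to under 1 CPM in both libraries. Immune markers summed to 4.26 CPM (control) and 3.78 CPM (*Myl3*-KO), and neural markers to 13.2 and 15.4 CPM.

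Part of the kinase domain of 5 receptors is written below because it shows how closely related the receptors are at the sequence level, on which the separate counting of family members rests. The catalytic loop of the kinase was located by translating the longest coding transcript that holds it, and the 60 bases around it are printed with the loop codons in capitals and 18 coding bases on either side. The transcripts are from GENCODE M21 on GRCm38. The loop was found in 8 of the 9 members other than *Pdgfrb*, whose sequence is not shown here, and not in *Fgfrl1*.
Fgfr1: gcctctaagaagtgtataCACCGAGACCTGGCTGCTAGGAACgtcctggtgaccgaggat
Fgfr2: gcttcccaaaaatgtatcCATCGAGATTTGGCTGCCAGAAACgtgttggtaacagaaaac
Fgfr3: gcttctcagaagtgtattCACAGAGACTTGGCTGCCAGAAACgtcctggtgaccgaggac
Pdgfra: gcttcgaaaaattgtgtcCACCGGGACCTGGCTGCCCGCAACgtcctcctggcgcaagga
Ddr1: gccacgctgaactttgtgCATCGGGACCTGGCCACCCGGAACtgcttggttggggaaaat
Over these 60 bases *Fgfr1* was identical to *Fgfr3* at 86.7% and to *Fgfr2* at 70.0%, and *Fgfr2* was identical to *Fgfr3* at 78.3%. The longest identical run between any pair shown was 20 bases, between *Fgfr1* and *Fgfr3*. Across their whole annotated transcripts the 10 members shared 0 stretches of 31 bases with each other on either strand. Stretches of 31 bases shared with other counted genes made up at most 2.69% of a member's, the value of *Fgfr2*. When transcripts of all annotated genes were considered, *Fgfr3* shared 14.9% of its stretches with another gene, the highest share of the 10.

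On GRCm38 the members are spread over 8 chromosomes. *Fgfr3* (ENSMUSG00000054252) lies at chr5:33721674-33737068, *Pdgfra* (ENSMUSG00000029231) at chr5:75152292-75198215 and *Fgfrl1* (ENSMUSG00000008090) at chr5:108692382-108706924, all on the plus strand. *Fgfr1* (ENSMUSG00000031565) lies at chr8:25513654-25575718, *Egfr* (ENSMUSG00000020122) at chr11:16752203-16918158, *Met* (ENSMUSG00000009376) at chr6:17463800-17573980 and *Pdgfrb* (ENSMUSG00000024620) at chr18:61045150-61085061, also on the plus strand. *Ddr1* (ENSMUSG00000003534) lies at chr17:35681567-35704621, *Ddr2* (ENSMUSG00000026674) at chr1:169972307-170110762 and *Fgfr2* (ENSMUSG00000030849) at chr7:130162451-133123350, on the minus strand. The annotated model of *Fgfr2* is long enough to span 30 other counted genes, and of these only the span of *Ctbp2* overlaps an *Fgfr2* exon. Transcripts of *Fgfr2* and *Ctbp2* share 285 stretches of 31 bases. In the control the expected counts of *Fgfr2* and *Ctbp2* were 960.93 and 463.07, neither of them whole. The other 9 members overlapped no other counted gene.

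The level per length (FPKM, reads scaled by gene length and library size) ranged over about 3 orders of magnitude within the set. *Pdgfrb* was the most abundant receptor in both libraries, with 38.74 FPKM in the control and 63.35 in *Myl3*-KO. *Ddr2*, *Fgfrl1* and *Fgfr1* came next, with 26.15, 25.09 and 22.26 FPKM in the control and 27.66, 26.35 and 29.11 in *Myl3*-KO. *Ddr1* and *Fgfr2* stood at 17.98 and 17.81 FPKM in the control and at 19.94 and 14.66 in *Myl3*-KO. *Met* was lower, at 5.26 and 4.80 FPKM, and *Fgfr3*, the receptor best known from growth plate cartilage, was at 2.05 and 2.65. *Pdgfra* was at 1 and 1.58 FPKM and *Egfr*, with 7 and 10 counts, at 0.04 and 0.10.

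Most steps in this order exceeded the 95% counting intervals of the neighbours. The exceptions in the control were *Ddr2* with *Fgfrl1* and *Ddr1* with *Fgfr2*, and in *Myl3*-KO *Fgfr1* with *Ddr2* and *Ddr2* with *Fgfrl1*. *Fgfr1* moved from rank 4 in the control to rank 2 in *Myl3*-KO, and *Fgfr2* stayed at rank 6. The FPKM of the 10 members summed to 156.4 in control and 190.2 in *Myl3*-KO cells, and *Pdgfrb* alone held 24.8% and 33.3% of that sum.

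**Figure D1:**
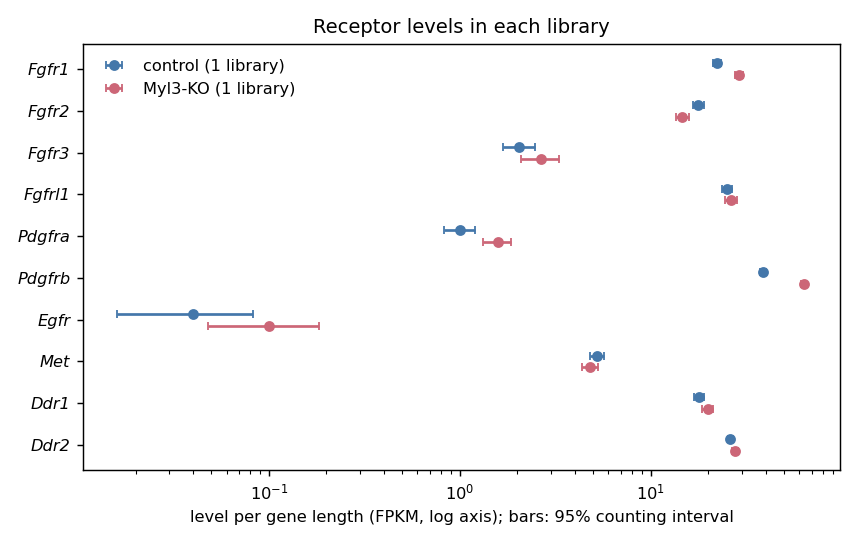
Level of each receptor in FPKM (horizontal log axis) in the control library (blue) and the *Myl3*-KO library (red), with bars for the 95% counting interval. *Pdgfrb* is rightmost in both, at 38.74 and 63.35 FPKM, and its intervals in the libraries are apart, while *Egfr* is leftmost with the widest intervals.

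Which receptors differed between the genotypes was asked by comparing the reads of each gene with the library totals. The log2 ratio is that of CPM in *Myl3*-KO over control, its interval is a 95% Clopper-Pearson counting interval, and the p-value is from a two-sided exact binomial test, adjusted over all genes tested by the Benjamini-Hochberg method. A call, higher or lower, required both an adjusted p under 0.05 and a log2 ratio of 0.5 or more in either direction, about 1.41-fold. The difference has no replicate check: what is compared is the reads of 2 libraries and not the genotypes themselves, and the intervals cover counting error only. In bulk RNA, fewer cells of a type and less RNA per cell cannot be told apart.

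Both PDGF receptors were called higher in *Myl3*-KO, and no member was called lower. Thus 2 of 10 members were called higher, where 4.03% of all genes tested were (501 genes), and 0 of 10 lower, where 1.37% were (170 genes). By the adjusted p alone, without the limit on size, 4 members were higher (*Fgfr1*, *Pdgfra*, *Pdgfrb*, *Ddr1*) and 1 was lower (*Fgfr2*), beside 18.6% and 16.8% of all genes. By an unadjusted p under 0.05 and a log2 ratio of at least 2 in size, 0 members passed, beside 0.298% of all genes (37 genes). The median log2 ratio of the 10 members was 0.12, and that of all genes tested was 0.02. Of the members 7 of 10 were above 0, beside 52.7% of all genes.

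The spread over all genes gives a scale for these ratios. The 5th and 95th percentiles of all log2 ratios were -0.43 and 0.65. *Pdgfrb* and *Egfr* lay above this range and the other 8 members inside it. *Egfr* did so on 17 counts over both libraries, in a region of the plot of all genes where ratios scatter widely, whereas *Pdgfrb* had 8306 counts.

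**Figure D2:**
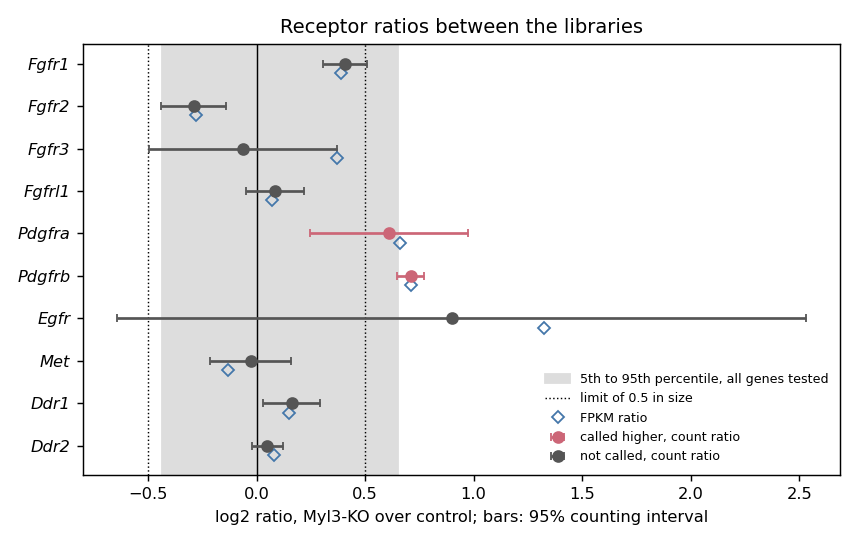
Log2 ratio of each receptor, *Myl3*-KO over control (horizontal axis), from counts with 95% counting intervals (filled circles, red where called higher) and from FPKM (open diamonds). The grey band spans -0.43 to 0.65, the 5th to 95th percentile of all genes tested; the interval of *Pdgfrb* lies wholly above the limit of 0.5, and the diamond of *Fgfr3* lies apart from its circle.

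**Figure D3:**
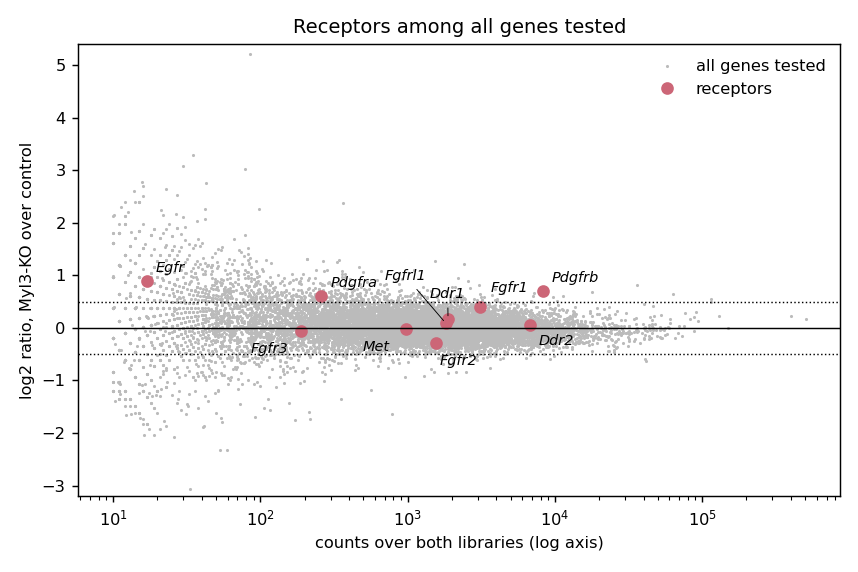
Log2 ratio (vertical axis) against counts over both libraries (horizontal log axis) for all 12431 genes tested (grey) and the 10 receptors (red). *Pdgfrb*, at 0.71 with 8306 counts, lies above the dotted line at 0.5, and *Egfr*, with 17 counts, sits where the grey points spread most.

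*Pdgfrb* encodes the receptor for PDGF-B and PDGF-D, a mitogen receptor of mesenchymal and mural cells. It had 3689 control and 4617 *Myl3*-KO counts, although the *Myl3*-KO library was the smaller one. In CPM these were 209.5 and 342.6, a ratio of 1.64. The log2 ratio was 0.71 (counting interval 0.65 to 0.77; exact binomial test, adjusted p = 6.18e-108), and 4.29% of all genes tested had a ratio at or above it. When edgeR's exact test was given a preset coefficient of variation of 0.1 between libraries, the adjusted p was 0.0888. Of markers for mural cells, which express *Pdgfrb*, *Kcnj8* and *Abcc9* were at 0 in both libraries and *Notch3* had 2 counts in each, while *Cspg4* had 344 and 366 counts and *Rgs5* 7 and 14. The list of 5 summed to 20.04 CPM (control) and 28.3 CPM (*Myl3*-KO), of which *Cspg4* alone held 19.5 and 27.2 CPM. The part of this list in the *Pdgfrb* result was not tested.

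*Pdgfra*, the receptor for PDGF-A and PDGF-C as well as PDGF-B, had 120 control and 140 *Myl3*-KO counts. In CPM these were 6.81 and 10.4, a ratio of 1.52. The log2 ratio was 0.61 (counting interval 0.25 to 0.97; exact binomial test, adjusted p = 0.00330), so the lower bound was under the limit of 0.5. With the preset coefficient of variation of 0.1 the adjusted p was 0.629. The ratio of *Pdgfrb* to *Pdgfra* counts was 30.7 in control and 32.98 in *Myl3*-KO cells, a log2 change of 0.10 (counting interval -0.27 to 0.47), so a shift between the 2 receptors was not detectable at this depth. The sequence before the start of *Pdgfra* is shown because it was called and has a promoter entry. The RefSeq promoter table (GRCm38.p6) matched 8 of the 10 members, all but *Fgfr1* and *Pdgfrb*. These are the 200 bases before the RefSeq start of *Pdgfra*, at chr5:75152051-75152250 on the plus strand, just before the GENCODE gene.
Pdgfra promoter: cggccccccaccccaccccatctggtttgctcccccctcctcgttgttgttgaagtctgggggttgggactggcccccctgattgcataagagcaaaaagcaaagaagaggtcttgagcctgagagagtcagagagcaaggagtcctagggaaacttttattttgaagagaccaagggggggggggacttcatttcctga
Its GC content was 55.0%, where the median of 32851 RefSeq promoter windows of this length was 53.0%, and it held 2 CpG dinucleotides. The GC box letters GGGCGG, sought on both strands, occurred 0 times in it and in 31.05% of all windows. The TATA box letters TATAAA also occurred 0 times, and in 9.96% of all windows.

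No PDGF ligand was called from the counts. Of the 4 ligand genes 3 were tested and 0 were called, beside 4.03% higher and 1.37% lower of all genes. The median log2 ratio of the 3 was 0.48, beside 0.02 for all genes. *Pdgfc* had 435 control and 432 *Myl3*-KO counts, a log2 ratio of 0.38 (exact binomial test, adjusted p = 0.000802). *Pdgfa* had 231 and 247 counts, a log2 ratio of 0.48 (exact binomial test, adjusted p = 0.00137). Both were thus beyond counting error without reaching 0.5. By the FPKM ratio *Pdgfa* was at 0.52 and would be called higher. *Pdgfb*, the main ligand gene of PDGFRB, had 19 and 23 counts, a log2 ratio of 0.66 (counting interval -0.28 to 1.62; exact binomial test, adjusted p = 0.290), and *Pdgfd* was at 0 in both libraries. *Nrp2* and *Cd44*, the most abundant of the 5 co-receptor genes listed, had log2 ratios of 0.33 and 0.04. Of the co-receptors 3 were tested and 0 called, beside the same shares of all genes called.

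Among the FGF receptors the balance between *Fgfr1* and *Fgfr2* differed between the libraries. *Fgfr1* had 1544 control and 1566 *Myl3*-KO counts, which is 87.7 and 116.2 CPM. Its log2 ratio was 0.41 (counting interval 0.30 to 0.51; exact binomial test, adjusted p = 1.37e-13), below the limit for a call. *Fgfr2* had 960.93 and 602 counts, or 54.6 and 44.7 CPM. Its log2 ratio was -0.29 (counting interval -0.44 to -0.14; exact binomial test, adjusted p = 0.000672), also short of the limit. These differences were therefore larger than counting error and smaller than the size required for a call, in opposite directions. By the adjusted p alone 18.6% of all genes tested were higher and 16.8% lower. With edgeR's exact test at the preset coefficient of variation of 0.1, neither gene reached an adjusted p under 0.05.

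Within a library the comparison of receptors does not depend on how the libraries are scaled. The count ratio of *Fgfr1* to *Fgfr2* was 1.61 in control and 2.60 in *Myl3*-KO cells, a log2 change of 0.70 (counting interval 0.51 to 0.88). *Fgfr1* made up 42.7% of the counts of the 5 FGF receptor genes in the control (Clopper-Pearson interval 41.0% to 44.3%) and 51.1% in *Myl3*-KO (49.3% to 52.8%). The share of *Fgfr2* was 26.5% (25.1% to 28.0%) in the control and 19.6% (18.2% to 21.1%) in *Myl3*-KO. For both genes the intervals of the libraries did not overlap, and how often this holds for other genes was not counted. By the adjusted p alone, as given above, 18.6% of all genes tested were higher and 16.8% lower. The intervals cover counting error only, and how far such shares vary between mice is unknown. *Fgfrl1* held 27.8% and 26.6%, *Fgfr3* 3.01% and 2.61%, and *Fgfr4* had 1 and 3 counts. Per length *Fgfrl1* was the largest of the family in the control, with 37.3% of the FPKM, and *Fgfr1* in *Myl3*-KO, with 40.0%.

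**Figure D4:**
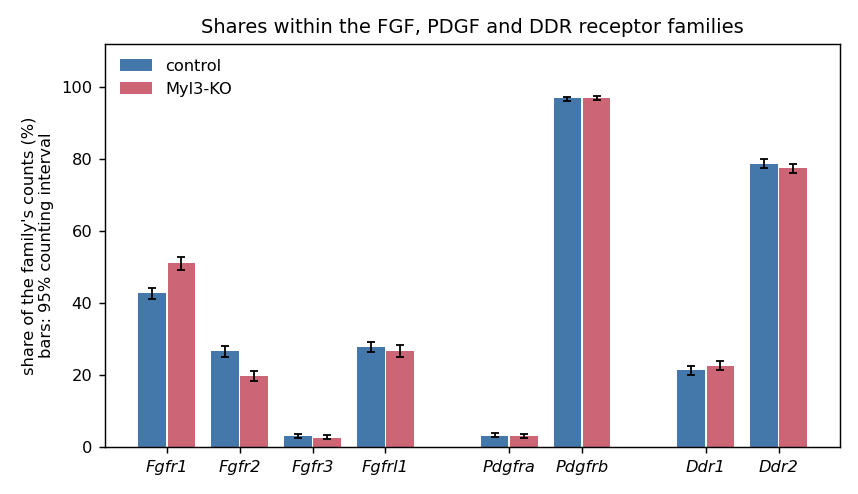
Share of each receptor in the counts of its family (vertical axis, percent) in the control (blue) and *Myl3*-KO (red) library, with 95% counting intervals; *Fgfr4*, with 1 and 3 counts, is in the total but not drawn. *Fgfr1* went from 42.7% to 51.1% and *Fgfr2* from 26.5% to 19.6%, while the intervals of all other bars overlap between the libraries.

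*Fgfr3* was sparsely covered and its ratio depended on the unit. It had 109 control and 80 *Myl3*-KO counts, or 6.19 and 5.94 CPM, a log2 ratio of -0.06 (counting interval -0.50 to 0.37; exact binomial test, adjusted p = 0.911). The deposited FPKM values instead gave a log2 ratio of 0.37. The counts and FPKM together imply a gene length of 3019 bases in control and 2240 in *Myl3*-KO cells, a ratio of 0.742. Of the 10562 genes at 1 FPKM or more in both libraries, 86.4% had implied lengths within 5% of each other, and 35 genes (0.331%) had a ratio as low as that of *Fgfr3* or lower. GENCODE M21 lists 17 *Fgfr3* transcripts of 601 to 4245 bases. Which of them supplied the reads cannot be read from a table of genes, and the part of isoforms in this difference was not tested.

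*Fgfrl1* had 1005 and 816 counts, with a log2 ratio of 0.09 (counting interval -0.05 to 0.22; exact binomial test, adjusted p = 0.355). Of the 22 FGF ligand genes 6 were tested and 12 had 0 counts in both libraries. *Fgf7*, whose product signals through an FGFR2 isoform of epithelial cells, was the only ligand called. It had 301 control and 411 *Myl3*-KO counts, a log2 ratio of 0.84 (counting interval 0.62 to 1.05; exact binomial test, adjusted p = 3.98e-13). *Fgf2*, next in counts, had 15.85 and 19.94 counts and was not called. The count of FGF ligands called, 1 of 6 beside 4.03% of all genes, was 0 at a log2 limit of 1 and by edgeR's exact test at each preset coefficient of variation.

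Neither collagen receptor was called. *Ddr1*, the member of the pair found mostly in epithelia, had 1014 control and 868 *Myl3*-KO counts, or 57.6 and 64.4 CPM. Its log2 ratio was 0.16 (counting interval 0.03 to 0.29; exact binomial test, adjusted p = 0.0449), and the adjusted p was 0.108 under TMM scaling and 0.0985 under DESeq2 size factors. *Ddr2*, the mesenchymal member, had 3756 and 2976 counts, or 213.3 and 220.8 CPM, a log2 ratio of 0.05 (counting interval -0.02 to 0.12; exact binomial test, adjusted p = 0.285). The count ratio of *Ddr2* to *Ddr1* was 3.70 in control and 3.43 in *Myl3*-KO cells, a log2 change of -0.11 (counting interval -0.26 to 0.04). Per length *Ddr2* exceeded *Ddr1* by 1.45-fold in the control and 1.39-fold in *Myl3*-KO.

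Of 9 genes for collagen chains that bind these receptors, 7 were tested and 1 was called higher, beside 4.03% of all genes. The list was chosen with earlier results of these data known, and the study itself listed *Col4a2* among its most up-regulated genes. *Col4a2*, a basement membrane collagen chain, had 5 control and 22 *Myl3*-KO counts, a log2 ratio of 2.52 (counting interval 1.09 to 4.28; exact binomial test, adjusted p = 0.000630). The abundant chains *Col1a2* and *Col3a1* had log2 ratios of 0.22 and 0.01. The median of the list was 0.22. No gene of the list was called where at least 10 counts were required in each library, or by edgeR's exact test at any of the 3 preset coefficients of variation.

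*Met*, the only receptor of hepatocyte growth factor, had 555 control and 417 *Myl3*-KO counts, or 31.5 and 30.9 CPM. Its log2 ratio was -0.03 (counting interval -0.21 to 0.16; exact binomial test, adjusted p = 0.892). Its ligand gene *Hgf* had 0 counts in both libraries, which allows up to 0.170 CPM there in the control and up to 0.223 CPM in *Myl3*-KO. None of the 6 ligand and activation genes reached the 10 counts needed for the test, and the most abundant, *Hgfac*, had 4 counts in each library. The related receptor *Mst1r* had 1 count in the control and 0 in *Myl3*-KO.

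*Egfr* was near the floor. It had 7 control and 10 *Myl3*-KO counts, a log2 ratio of 0.90 (counting interval -0.64 to 2.53; exact binomial test, adjusted p = 0.374), so that a difference in either direction was not detectable at this depth. Its relative *Erbb2*, which has no ligand of its own and signals by pairing with other members, held 99.2% of the counts of the 4 EGFR family genes in the control and 98.9% in *Myl3*-KO. *Erbb3* had 1 count in each library and *Erbb4* 0. Of the 7 EGFR ligand genes 4 were tested and 0 called, beside 4.03% higher and 1.37% lower of all genes. *Hbegf* had 94 and 97 counts and *Tgfa* 73 and 49.

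Related kinases outside the set were measured for comparison. Of 10 such genes 4 were tested and 0 called, beside 4.03% higher and 1.37% lower of all genes. The median log2 ratio of the 4 was 0.29. *Igf1r*, the IGF-1 receptor, had 1174 and 1189 counts and a log2 ratio of 0.40. *Erbb2* had 963 and 951 counts and a log2 ratio of 0.37. Both were beyond counting error and below the limit, as was *Fgfr1*.

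Downstream of the receptors, 0 of the 16 adaptor and proximal enzyme genes tested and 0 of the 12 genes of the RAS-ERK cascade were called. These counts stand beside 4.03% higher and 1.37% lower of all genes. The median log2 ratios of the 2 lists were 0.13 and -0.04. *Ptpn11*, the phosphatase SHP2 that couples receptors to RAS, had 6963 control and 5229 *Myl3*-KO counts, a log2 ratio of -0.03. *Crk*, an adaptor, had a log2 ratio of -0.13. By the adjusted p alone 7 adaptors were higher and 2 lower, and 3 cascade genes were higher and 2 lower, beside 18.6% higher and 16.8% lower of all genes.

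Of the 11 tested genes in the list for receptor down-regulation, which also holds membrane proteases, 1 was called higher, beside 4.03% of all genes. *Ptprj*, a receptor-type phosphatase that dephosphorylates growth factor receptors, had 83 control and 105 *Myl3*-KO counts, a log2 ratio of 0.73 (counting interval 0.30 to 1.16; exact binomial test, adjusted p = 0.00317). The most abundant of this list, the membrane protease gene *Adam10* and the CBL-binding adaptor gene *Sh3kbp1*, had log2 ratios of -0.04 and -0.08. At a log2 limit of 1, or by edgeR's exact test at each preset coefficient of variation, 0 genes of this list were called.

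Of the 12 tested genes for ERK feedback inhibitors and PEA3 factors, 3 were called higher, each with few counts, beside 4.03% of all genes tested. Like the others, this list was chosen with earlier results of these data known, so its count is not an independent finding. *Etv5* is also among the most up-regulated genes that the study listed from its own RNA sequencing. *Etv5* had 9 control and 33 *Myl3*-KO counts, *Etv4* 7 and 20, and *Dusp6*, the ERK phosphatase, 8 and 17. The more abundant *Spred1* and *Spred2* had log2 ratios of 0.05 and 0.17 and were not called. The count was 2 under TMM scaling or DESeq2 size factors, and 0 where at least 10 counts were required in each library, since each of the 3 had fewer in the control. At preset coefficients of variation of 0.1, 0.2 and 0.4 edgeR's exact test called 1, 0 and 0 genes of this list.

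**Figure D5:**
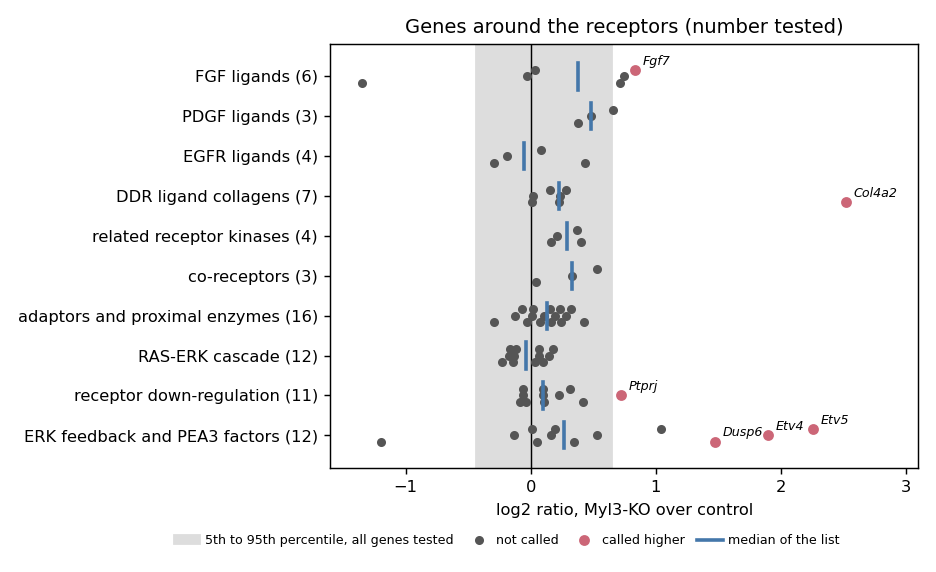
Log2 ratio of each tested gene (horizontal axis, *Myl3*-KO over control) in the lists around the receptors, with the number tested in parentheses, called genes in red and the list median as a blue line. Most points lie in the grey band of -0.43 to 0.65 that spans the 5th to 95th percentile of all genes tested, and the 6 called genes lie to its right.

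The pathway column of the deposited table names a pathway for 7 of the 10 receptors and none for *Fgfrl1*, *Ddr1* and *Ddr2*. All 7 stood in PI3K-Akt, Ras and Rap1 signaling, 6 in MAPK signaling and in regulation of the actin cytoskeleton, and 5 in endocytosis. With 2 libraries the pattern of a gene is 1 ratio, so no gene was singled out as most like a receptor.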

How the data were processed

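The files hold RNA sequencing of primary chondrocytes, from 1 library of each genotype (control and *Myl3*-KO). In them the authors deposited expected counts, estimated reads per gene with no normalization, and FPKM values, scaled by gene length and library. The submitters' processing notes name the builds GRCm38 and mm10; the aligner, counter and use of strand were not given in the sources used here. The methods describe mRNA enrichment on oligo beads and the labels a SMARTER kit. Of the table's columns, NC was taken for the control, since its partner is KO.

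Log2 ratios used expected counts per library total, with counts under 3 raised to 3. For the exact binomial test and the Clopper-Pearson intervals (95%) counts were rounded to whole numbers. Neither the quasi-likelihood test of edgeR nor DESeq2 can be fitted as a test to single libraries, which leave no residual degrees of freedom. Genes with fewer than 10 counts over both libraries (9725) were not tested. In simulated data without variation between libraries the test was tried with changes of known size before use, so that trial covers counting error only. Intervals of FPKM were exact Poisson limits of each library's rounded count, scaled to FPKM. For changes in the count ratio between receptors, the counting interval was the conditional exact interval of the odds ratio.

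Genes named are the 10 receptors, *Myl3*, each called gene and the 2 with the most counts in each list around the receptors, and leading or absent markers; *Pdgfb*, *Pdgfd*, *Hgf*, *Ctbp2*, *Col2a1*, *Col11a2*, *Dcn*, *Lum*, *Fn1*, *Rgs5*, *Notch3* and the remaining family members (*Fgfr4*, *Erbb3*, *Erbb4*, *Mst1r*) were added after their values were seen. The members and lists were chosen with earlier results of these data known, so the share of a list called is not independent of those results. *Gab2*, *Spry3* and *Snorc* of the lists were not found by symbol. Some items that this rule would name are not reported here. Coordinates and transcripts came from GENCODE M21 and promoters from RefSeq. Alternatives were TMM and DESeq2 scaling, totals without the 10 most abundant genes, 1 added count, the FPKM ratio (0 raised to 0.01), other filters and limits, and the exact test of edgeR at assumed coefficients of variation of 0.1, 0.2 and 0.4. Python 3.11.15, scipy 1.17.1, R 4.3.3, edgeR 4.0.16 and DESeq2 1.42.0 were used.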

Additional observations from a re-analysis of the deposited data

How the results depend on the processing

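Scaling by TMM, by DESeq2 size factors or by totals without the 10 most abundant genes, adding 1 count, and removing the filter on low counts left all 10 receptors on the same side of the call and in the same direction, with 2 called higher. The FPKM ratio did so for 9 of 10 and turned *Fgfr3* to 0.37. With at least 10 counts in each library *Egfr* was not tested and the other 9 kept direction and call. Without a limit on size 4 receptors were higher and 1 lower, and over all genes 2307 and 2090. A limit of 1 called 0 receptors and, over all genes, 143 higher and 49 lower, and a limit of 2 with an unadjusted p under 0.05 called 0 receptors and 31 and 6 genes. edgeR's exact test called 0 receptors at each preset coefficient of variation, and over all genes 41 higher and 20 lower at 0.1, 3 and 1 at 0.2, and 1 and 0 at 0.4; at 0.1 the unadjusted p was 0.000636 for *Pdgfrb* (log2 ratio 0.71) and 0.0278 for *Pdgfra* (0.61), and 0.0861 and 0.185 at 0.2. The median of the receptors was 0.10 under TMM, 0.26 by FPKM and 0.09 over members with at least 100 counts. By FPKM the share in the family was 33.1% and 40.0% for *Fgfr1* in control and *Myl3*-KO, 37.3% and 36.2% for *Fgfrl1*, 2.52% and 2.43% for *Pdgfra*, 97.5% and 97.6% for *Pdgfrb*, 40.7% and 41.9% for *Ddr1*, 59.3% and 58.1% for *Ddr2*, and 3.64% for *Fgfr3* in *Myl3*-KO. No paired analysis was possible because each genotype has 1 library. The spread between mice is unknown, and depth limits *Egfr*, *Fgfr3* and *Pdgfra* most.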
